A study of Homo sapiens with 36 samples.

Results

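The S100 genes of chromosome 1 encode small calcium-binding proteins, and this account covers 10 of them: S100A2, S100A3, S100A4, S100A6, S100A8, S100A9, S100A10, S100A11, S100A14 and S100A16. They are 10 of the 12573 protein-coding genes of chromosomes 1 to 12, the part of the genome that all 16 peak lists cover, and they were picked by family and position with earlier results of these data known. For each gene, the peaks of every list within 3 kb of any start site annotated by GENCODE (human build hg38) were collected, together with all peaks from chr1:151979915-153619986, the 1.64 Mb from S100A10 to S100A14 with 3 kb added at each end. This stretch held 61 protein-coding genes, among them the keratinocyte genes of the cornified envelope.

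S100 proteins fold into pairs of EF-hand motifs, the helix-loop-helix units that hold calcium, and most act as dimers that change shape when calcium binds and then grip a partner protein. S100A10 is the exception, since its loops no longer bind calcium and it is held in the active shape. Many S100 genes are expressed in a restricted set of epithelial or myeloid cells, and several are used as tumour markers in the lung and other epithelia. AP-1, the dimer of Jun and Fos family proteins that reads TGACTCA-like sites, is known to act on many genes of this region in keratinocytes.

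The lines studied by chromatin immunoprecipitation and sequencing (ChIP-seq) were A549, from a human lung adenocarcinoma, and BEAS-2B (B2B), an immortalised line of bronchial epithelium that is not cancerous. The series held 36 samples in 18 groups of 2, of which 4 samples in 2 groups were input DNA. RNA polymerase II (pol II), H3K4me3 (a histone mark of promoters), H3K27ac (a mark of active promoters and enhancers), Med1 (a Mediator subunit) and the AP-1 subunits JunB, Jun and JunD were compared in both lines, and CTCF and the cohesin subunit Rad21 were examined in B2B. No treatment or genetic change separated the samples within a line. Each line is a single cell line, so a difference is one between these lines and not between cancer and normal lung.

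Each of the 16 lists had been called on a pool of 2 replicates, so no value here has a replicate error and no test between the lines was possible. The lists held between 8563 peaks (B2B JunB) and 61225 peaks (B2B CTCF), and list length alone changes how often a gene is called. CDKN2A and CDKN2B, which A549 is known to have lost, had no peak near a start site in any A549 list but were called in B2B for pol II, H3K4me3, H3K27ac and Med1, as the labels require. Of 4 epithelial markers, KRT8 and KRT18 were called in all 16 lists, while EPCAM and CDH1 had pol II and H3K4me3 peaks in both lines. EPCAM was missing from some other lists, among them B2B JunB, Jun and JunD. CDH1 was missing from A549 JunD, and the A549 H3K27ac list and the Med1 lists of both lines do not cover it. Of 2 mesenchymal genes, VIM was called in every list but B2B JunD. ZEB1 was missing from the B2B lists of pol II, JunB, Jun, JunD and CTCF and from A549 JunD. The basal airway genes KRT5, KRT14 and TP63 had no peak in a B2B list that covers them, and the B2B Med1 list covers only 2 of the 3. In A549, TP63 was called for pol II and H3K4me3, and KRT5 for JunB and Jun.

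3 measures are given for a peak. The deposited fold enrichment divides the reads at the summit by a local background, after 1 is added to each, the percentage from the top gives its place when the list is ordered by -log10 p, and the summit reads are the whole number of stacked reads, recovered from fold enrichment and -log10 p. All 57351 peaks of chromosome 1 gave a whole number within 0.01 of the deposited -log10 p. Where the text names the strongest peak of a gene, it is the one with the highest -log10 p.

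The genes differed widely in how many lists marked them. S100A10, S100A11, S100A6 and S100A2 each had a peak in 15 of the 16 lists, S100A16 in 13, S100A4 and S100A3 in 11 and S100A14 in 9. S100A9 had only a CTCF and a Rad21 peak, and S100A8 had none.

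Pol II was called at 8 of the 10 genes in A549, where 68.8% of protein-coding genes were called, and at 6 in B2B, against 51.7%. H3K4me3 marked 8 genes in A549 (74.6% of all genes) and 5 in B2B (63.1%). For H3K27ac the count was 8 in both lines, against 73.5% of all genes in A549 and 64.3% in B2B. Med1 was called at 6 genes in A549 (54.2%) and at 8 in B2B (60.7%). Read against these shares, the counts for these 4 targets were near the background in both lines.

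Jun-family peaks were called at a larger share of the S100 genes than of genes in general, a difference that has no test here and in which S100A4 and S100A3 shared each peak. JunB reached 7 of the 10 genes in A549, where 32.3% of all genes had a JunB peak, and 5 of 10 in B2B, where 5.77% had one. Jun was called at 7 genes in A549 (39.2% of all genes) and at the same number in B2B (27.1%). JunD was called at 4 genes in A549 (17.7%) and, in B2B, at S100A2 alone (3.68%). In B2B, CTCF was called at 9 genes (50.9% of all genes) and Rad21 at 9 (68.1%), with S100A8 the gene left out by both. The strongest JunB peak of the 7 genes in A549 had a median place of 4.90% from the top of the list, with a range from 0.0249% to 14.1%, whereas that of all 4064 genes with a JunB peak had a median of 53.3%.

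**Figure D1:**
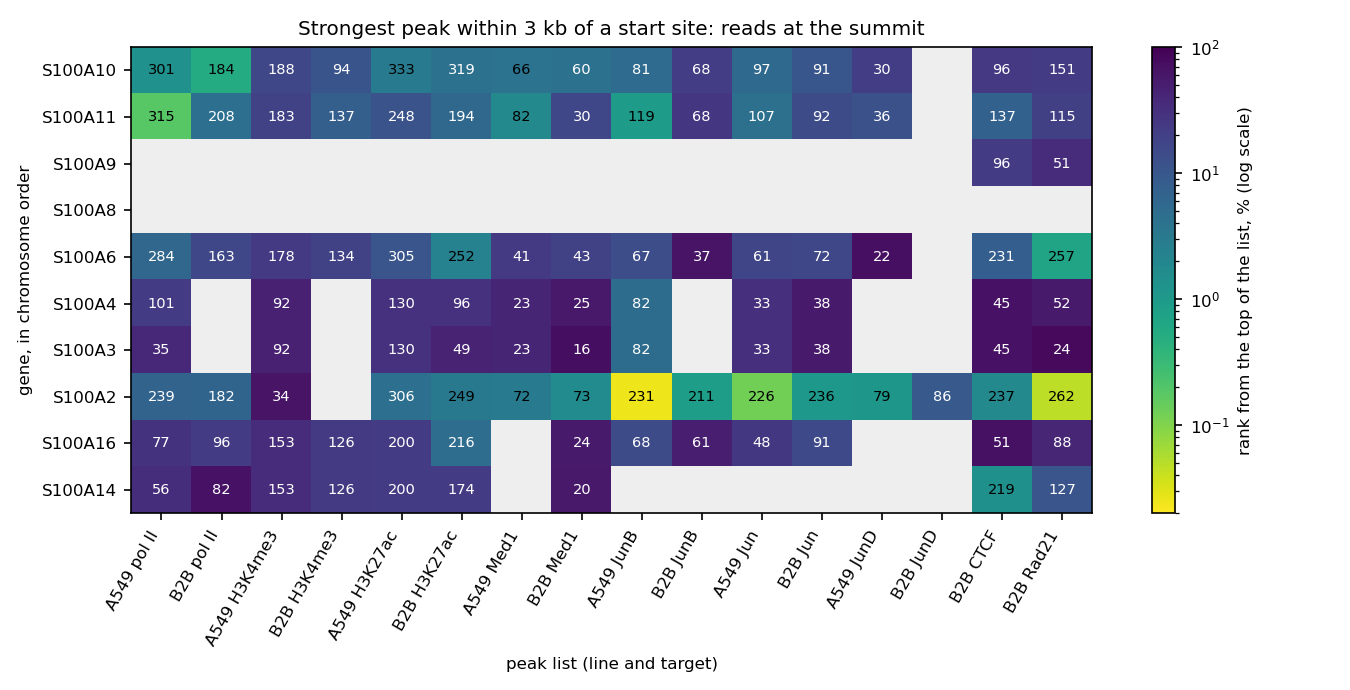
Strongest peak within 3 kb of a start site for each of the 10 S100 genes (rows, in chromosome order) in each of the 16 lists (columns). The number is the reads at the summit, the colour is the rank from the top of the list in percent on a log scale, and grey means no peak. The S100A2 row holds the highest-ranked Jun-family peaks, and the S100A8 row is empty.

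Calls found in a single line are given with the share of all genes called in the same way. Pol II was called in A549 but not B2B at S100A4 and S100A3 (18.5% of all genes) and at 0 genes the other way (1.43%). H3K4me3 was called in A549 alone at S100A4, S100A3 and S100A2 (12.8%) and in B2B alone at 0 (1.26%). H3K27ac gave 0 genes in A549 alone (11.2%) and 0 in B2B alone (2.02%). Med1 gave 0 in A549 alone (3.99%) and S100A16 and S100A14 in B2B alone (10.5%). JunB was called in A549 alone at S100A4 and S100A3 (27.6%) and in B2B alone at 0 (1.06%), and it was called in both lines at 5 genes, against 4.71% of all genes. Jun gave 0 genes in A549 alone (19.0%) and 0 in B2B alone (6.94%), since its 7 genes were the same in both lines. JunD was called in A549 alone at S100A10, S100A11 and S100A6 (16%) and in B2B alone at 0 (1.92%).

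S100A10 and S100A11 are annexin partners, S100A10 of annexin A2 at the plasma membrane and S100A11 of annexin A1, and both lie at the start of the cluster on the minus strand. S100A10 spans chr1:151982915-151993859 and S100A11 spans chr1:152032506-152047907. Both had every mark of an active gene in both lines, and their calls over the 16 lists were identical, a pattern that 103 other genes of chromosomes 1 to 12, S100A6 among them, shared with each.

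S100A10 has 4 annotated starts, from position 151992578 to the canonical one at 151993859. The strongest pol II peak of A549 covered them all. Its summit of 301 reads (1.33% from the top) was near the canonical start. In B2B the peak over the start had 227 reads, but the strongest one lay inside the gene, 2611 bp from a start, with 184 reads and at 0.531% from the top, because its local background was 4.21 reads against 44.6 at the start. The start therefore held the most pol II reads in both lines, although the list of B2B orders the peaks otherwise. H3K27ac gave 333 reads in A549 and 319 in B2B, and Med1 gave 66 and 60.

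The strongest Jun-family peaks within 3 kb of a start of S100A10 lay over its innermost start, at position 151992578, inside the gene. JunB gave 81 reads in A549 and 68 in B2B. Jun gave 97 and 91 reads there, and JunD gave 30 in A549 with no peak in B2B. JunB and Jun were thus called at the same place in both lines, with summits 37 to 94 bp from a TGACTCA site at an exon of the gene. A further region, chr1:151988259-151988949, with a higher fold enrichment summed over the lists but a lower one in A549, lay in an intron of S100A10, 3629 bp from the nearest start, and was called by all 6 Jun-family lists, with its highest enrichment for Jun. Jun was enriched 29.1-fold in A549 and 50.1-fold in B2B, against 17.7-fold and 12.3-fold for JunB, and JunD stood at 4.87 in A549 and 7.74 in B2B. Since it lies past 3 kb it does not count as a call of S100A10, and with a reach of 5 kb the JunD count of B2B becomes 2 genes.

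The intronic site and its neighbours are shown because a Jun-family summit lay within 50 bp of each. All are from hg38, plus strand, 5′ to 3′, with the AP-1 site (TGACTCA or its reverse complement TGAGTCA, both searched within 50 bp of a summit) in capitals. The first, at chr1:151988585-151988645, had the summits of all 6 lists 3 to 28 bp from the centre of the site. The others are at chr1:151989651-151989711 and, by the innermost start, chr1:151992504-151992532. For the site by the innermost start, only the B2B Jun summit, at 37 bp, lay within 50 bp.
S100A10 intron site: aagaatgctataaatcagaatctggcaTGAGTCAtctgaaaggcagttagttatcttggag
S100A10 second intron site: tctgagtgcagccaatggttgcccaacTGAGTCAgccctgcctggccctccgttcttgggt
S100A10 start site: cagaccaggtgTGACTCActtcctcttgg

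S100A11 has 2 annotated starts, and the lists treated them differently. Over the canonical start the A549 pol II peak had 315 reads and ranked 84 of 45938 (0.182% from the top), against 208 reads in B2B. Over the outer start, at position 152047907, A549 pol II had 255 reads and B2B 69, and A549 H3K27ac had 176 reads where the stronger of 2 B2B peaks had 63. Both starts were thus occupied in both lines, and the outer one differed more in reads between them.

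The outer start of S100A11 carried the Jun family. In chr1:152047426-152048831 JunB had 119 reads in A549 (rank 265 of 28068) and 68 in B2B. Jun had 107 reads in A549 and 92 in B2B. JunD had 36 in A549 and no peak in B2B. At the canonical start the A549 lists held only weak peaks, with 19 reads for JunB and 22 for Jun, and the B2B lists held none, so counting the canonical start alone removes S100A11 from the JunB and Jun calls of B2B. The JunB summits of both lines and the B2B Jun summit lay 9 to 23 bp from the site below (chr1:152048238-152048298), while the A549 Jun and JunD summits lay 304 and 318 bp away in the same region.
S100A11 outer start site: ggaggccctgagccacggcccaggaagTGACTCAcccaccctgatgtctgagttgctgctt

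**Figure D2:**
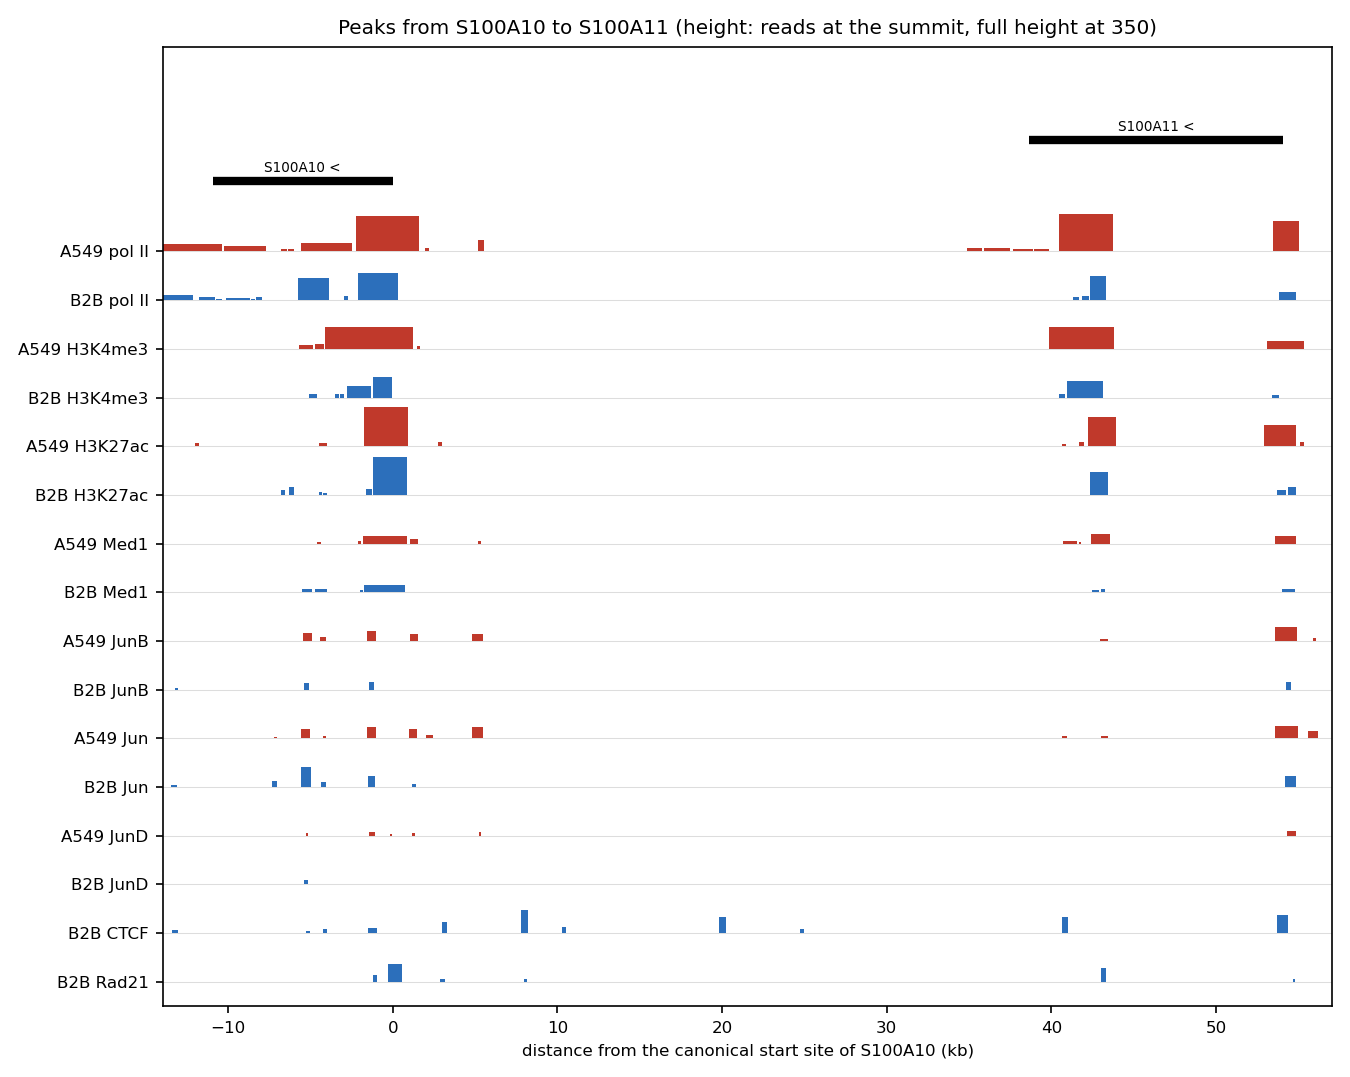
Peaks of the 16 lists from S100A10 to S100A11, by distance from the canonical start of S100A10 in kb. Each bar spans a peak and its height gives the summit reads, from 0 in every row, in red for A549 and blue for B2B. Black bars are gene bodies and the mark < the minus strand. The Jun-family bars stood inside S100A10 and at its innermost start, at the outer start of S100A11, and between the genes, mostly in A549.

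S100A6 (calcyclin, chr1:153534599-153536244) binds calcyclin-binding protein and annexins and is expressed in many epithelial and mesenchymal cells. Its start had strong marks in both lines. Pol II gave 284 reads in A549 and 163 in B2B, H3K27ac 305 and 252, and H3K4me3 178 and 134. Med1 gave 41 and 43 reads.

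The strongest Jun-family region of S100A6, chr1:153533581-153534616, lay across and past the end of the short gene, 1375 bp from the nearest start, and was called by 5 lists. JunB gave 67 reads in A549 and 37 in B2B, Jun gave 61 and 72, and JunD gave 22 in A549 alone. The A549 JunD peak was a weak one, at 71.5% from the top of its list. Over the start itself, chr1:153535920-153536356, A549 alone had weak peaks of 29 JunB and 25 Jun reads. The summits lay 5 to 58 bp from the site shown here (chr1:153533912-153533940).
S100A6 downstream site: gaagtgccgggTGAGTCAttacgctgagg

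S100A4 (chr1:153543613-153550136), which binds non-muscle myosin and is known for its part in cell motility and metastasis, and S100A3 (chr1:153547329-153549258), best known from the hair cuticle, overlap on the same strand. Their peaks therefore cannot be split cleanly, and the 2 genes had the same calls in all 16 lists. At S100A4 the A549 pol II peak had 101 reads and the A549 H3K4me3 peak 92, and B2B had no peak of either kind. H3K27ac was called in both lines, with 130 reads in A549 and 96 in B2B at the strongest peak. S100A4 thus had H3K27ac in B2B without a called promoter mark.

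At S100A3 a pol II peak of 35 reads was called in A549 alone. Over its start, chr1:153549257-153549673, JunB gave 82 reads in A549 (4.90% from the top) and no peak in B2B, whereas Jun gave 33 reads in A549 and 38 in B2B. The nearest start of S100A4 is 475 bp from the JunB peak, so the same peak was counted for both genes. The 3 summits lay 4 to 12 bp from the site at chr1:153549450-153549510.
S100A3 start site: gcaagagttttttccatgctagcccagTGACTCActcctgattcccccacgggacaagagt

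S100A2 (chr1:153561108-153567890) encodes a mainly nuclear S100 protein of basal epithelial cells. It held the strongest Jun-family region of the cluster, chr1:153565536-153566942, with a fold enrichment of 154 summed over the 6 lists, all of which called it. JunB gave 231 reads in A549 (rank 8 of 28068) and 211 in B2B (rank 75 of 8563). Jun gave 226 reads in A549 (rank 45 of 35602) and 236 in B2B (rank 481 of 45047). JunD gave 79 reads in A549 (rank 107 of 9639) and 86 in B2B (rank 806 of 8597). In reads, the lines were close for all 3 proteins. Among the 12573 genes of chromosomes 1 to 12, 2 others had the same calls over the 16 lists as S100A2.

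In fold enrichment the same S100A2 peaks stood far apart. JunB was enriched 58.2-fold in A549 and 5.75-fold in B2B, Jun 59.0-fold against 14.8-fold, and JunD 13-fold against 3.73-fold. The local background was 2.99 reads in A549 and 35.8 in B2B for JunB, so the 10.1-fold gap in JunB enrichment went with a ratio of summit reads, each divided by the lowest background of its list, of 1.04 (95% counting interval 0.858 to 1.26). The 6 summits lay within 27 bp of one site, between 6 and 27 bp from its centre, and the site, at chr1:153566694-153566700, lies in an exon of S100A2. It is printed from chr1:153566683-153566711.
S100A2 site: tcagccctaagTGACTCAcccgaggttcc

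Pol II at S100A2 gave 239 reads in A549 and 182 in B2B, H3K27ac 306 and 249, and Med1 72 and 73. H3K4me3 was weak, with 34 reads in A549 at 63.7% from the top and no peak in B2B. The start of S100A2 was thus rich in H3K27ac, Med1 and Jun-family reads in both lines but poor in H3K4me3.

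S100A16 (chr1:153606886-153613145) is a widely expressed member, and S100A14 (chr1:153614255-153616986) is found mainly in epithelia. S100A16 had H3K4me3 peaks of 153 reads in A549 and 126 in B2B. H3K27ac peaks covered its inner and outer starts, with 182 and 200 reads in A549 and 216 and 174 in B2B. Pol II gave 77 reads in A549 and 96 in B2B. JunB gave 68 and 61 reads, and Jun 48 and 91. Med1 was called in B2B alone, with at most 26 reads, so that call rests on few reads. The Jun-family summits lay 22 to 72 bp from the site at chr1:153609067-153609095.
S100A16 start site: gatctactctgTGAGTCAcggcccatgcc

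Most calls of S100A14 belong to its neighbour. Of 11 peaks counted for S100A14, 8 lie nearer to S100A16, and no Jun-family peak was within 3 kb. The 3 peaks nearest to S100A14 were CTCF (219 reads, 610 bp from a start), Rad21 (127 reads) and a B2B H3K27ac peak of 25 reads at 583 bp. When each peak was counted for the nearest gene only, S100A14 kept no call in any A549 list.

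S100A9 (chr1:153357854-153361023) and S100A8 (chr1:153390032-153391073) encode the subunits of calprotectin, the abundant calcium- and zinc-binding complex of neutrophils that signals through TLR4 and AGER. Neither gene had a pol II, H3K4me3, H3K27ac, Med1 or Jun-family peak in either line. The CTCF peak of S100A9 lay 2044 bp from its start with 96 reads, and the Rad21 peak had 51 reads. A Jun-family region called in both lines lay 15161 bp from S100A8, in an exon of S100A12. The absence of S100A8 from all 16 lists was shared with 1998 other genes.

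**Figure D3:**
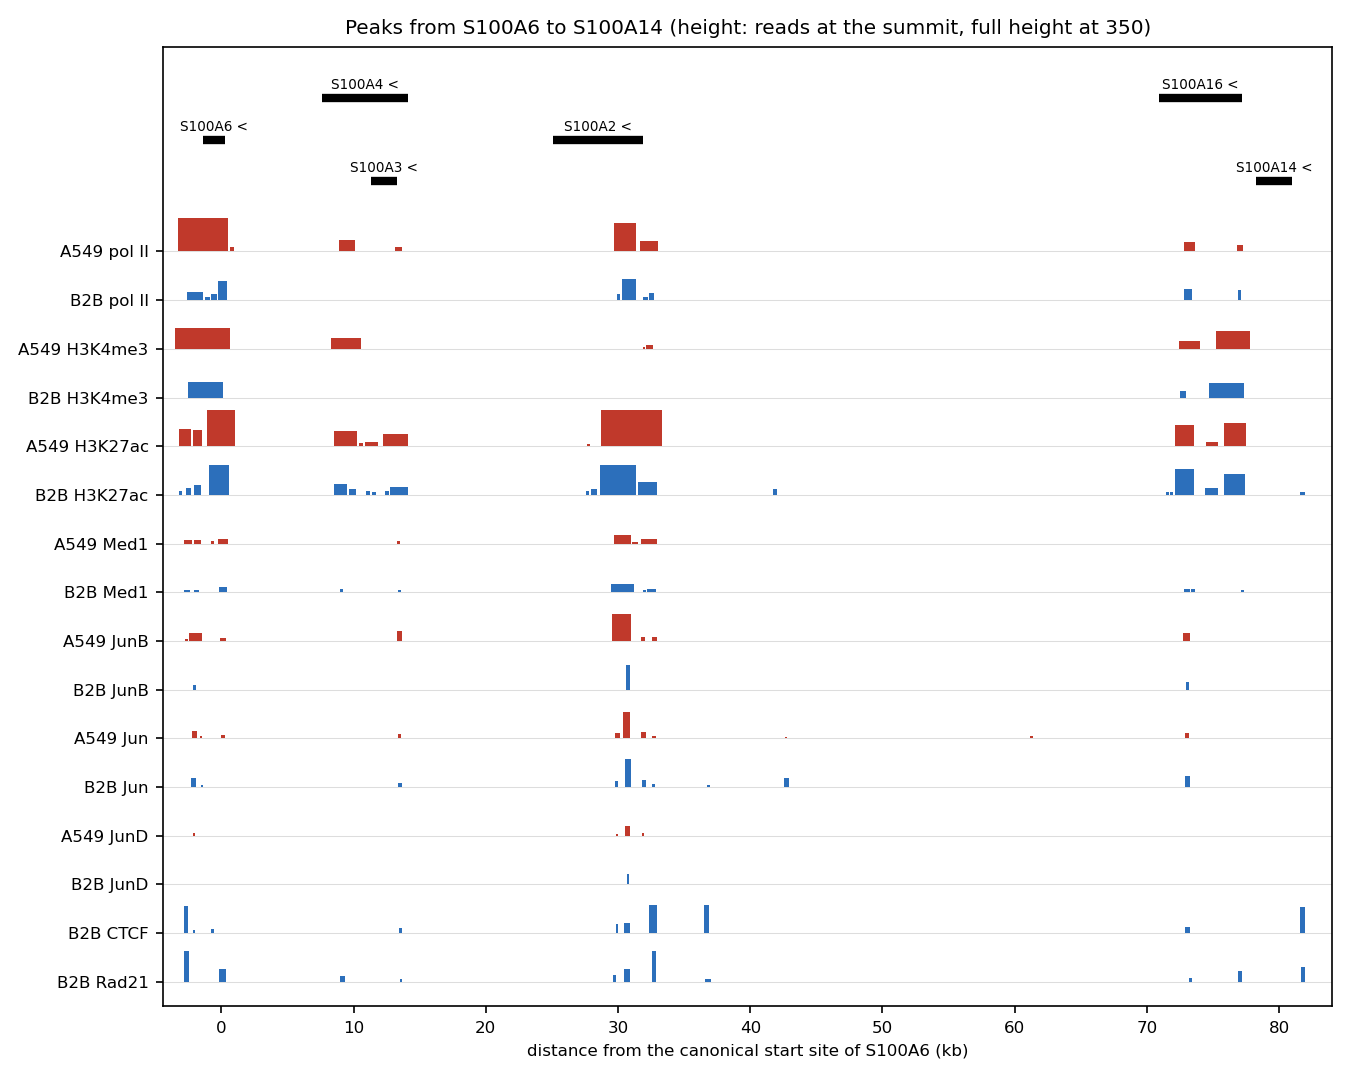
Peaks of the 16 lists from S100A6 to S100A14, by distance from the canonical start of S100A6 in kb. Bars span peaks, bar height gives summit reads from 0 in every row, red is A549, blue is B2B, and black bars are gene bodies on the minus strand. The tallest JunB and Jun bars of the block are those at S100A2, in both lines, and S100A4 has pol II and H3K4me3 bars in A549 only.

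Whether A549 carried more of each mark than B2B depends on the measure. Overlapping strongest peaks of the same target existed for 34 gene and target pairs (32 when a peak pair shared by neighbouring genes is counted for 1 of them). In fold enrichment, A549 was higher in 33 of the 34, with a median ratio of 3.66 and a range from 0.990 to 13.6. In summit reads, each divided by the lowest background of its list, the median ratio was 1.24 and the range 0.617 to 3.07. The 95% counting interval lay above 1 for 16 pairs and below 1 for 2. In 2 of the 34 pairs, H3K4me3 at S100A10 and H3K27ac at S100A3, the overlapping peaks had summits over 500 bp apart. Without them, a step added after the data were seen, the median was 1.24, the highest ratio 1.76 and the number of intervals above 1 was 14.

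The difference between the measures went with the local background, which was higher in B2B by a median of 4.04 times over these pairs. Its cause was not tested. The lowest background of a list, which was read as the level over the whole genome from the values alone, differed between the lines by 0.949 to 1.17 times in B2B over A549, so the lists were close in scale. The intervals cover counting error only, and the pooling of replicates leaves the spread between cultures unknown.

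By target, the read ratio of A549 over B2B was above 1 for all 7 H3K27ac pairs, with a median of 1.42, and each of their intervals lay above 1 (6 of 6 without S100A3). These ratios include a scale of 1.16 from the lowest backgrounds, a level near that of 7.98% of A549 and 1.28% of B2B H3K27ac peaks of chromosome 1. S100A16 is not among the pairs. Its overlapping peaks at the inner starts had 182 reads in A549 and 216 in B2B. Those at the outer starts, counted for S100A14, had 200 and 174. For H3K4me3, S100A16 and S100A14 shared the same peaks. The read ratio was also above 1 for all 5 H3K4me3 pairs (median 1.35), with 3 intervals above 1. One of these, S100A10 at 2.04, set 188 A549 reads against a B2B peak of 94 reads inside the gene, while the B2B peak beside the start had 170 reads. Without it the median was 1.30, with 2 intervals above 1. The 5 pol II pairs split, with S100A6 at 1.76, S100A11 at 1.53 and S100A2 at 1.33, and S100A16 at 0.812 and S100A14 at 0.692. The pol II peak counted for S100A14 lies at the start of S100A16. Jun ratios had a median of 1.02 over 7 pairs, from 0.617 at S100A16 to 1.36 at S100A11, with S100A4 and S100A3 sharing the same peaks. The 5 JunB ratios ran from 1.04 at S100A2 to 1.72 at S100A6. Med1 ratios had a median of 1.11, and no interval left 1.

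Genes of chromosome 1 in general gave median read ratios of 1.24 for pol II, 1.17 for H3K4me3 and 1.22 for H3K27ac. Med1 stood at 0.928 and Jun at 0.780, JunB at 1.14 and JunD at 1.06. The H3K27ac ratio of the S100 genes and the chromosome-wide one thus lay on the same side of 1. Among overlapping pairs, S100A10, with 333 reads against 319, had the lowest H3K27ac ratio (1.21), and S100A16, whose strongest peaks do not overlap, stood at 1.07. The ratio of 3.07 at S100A3 set the A549 peak of S100A4 against a weaker B2B peak, because the matching B2B peak lies over 3 kb from S100A3, and the matched pair gave 1.57 at S100A4.

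**Figure D4:**
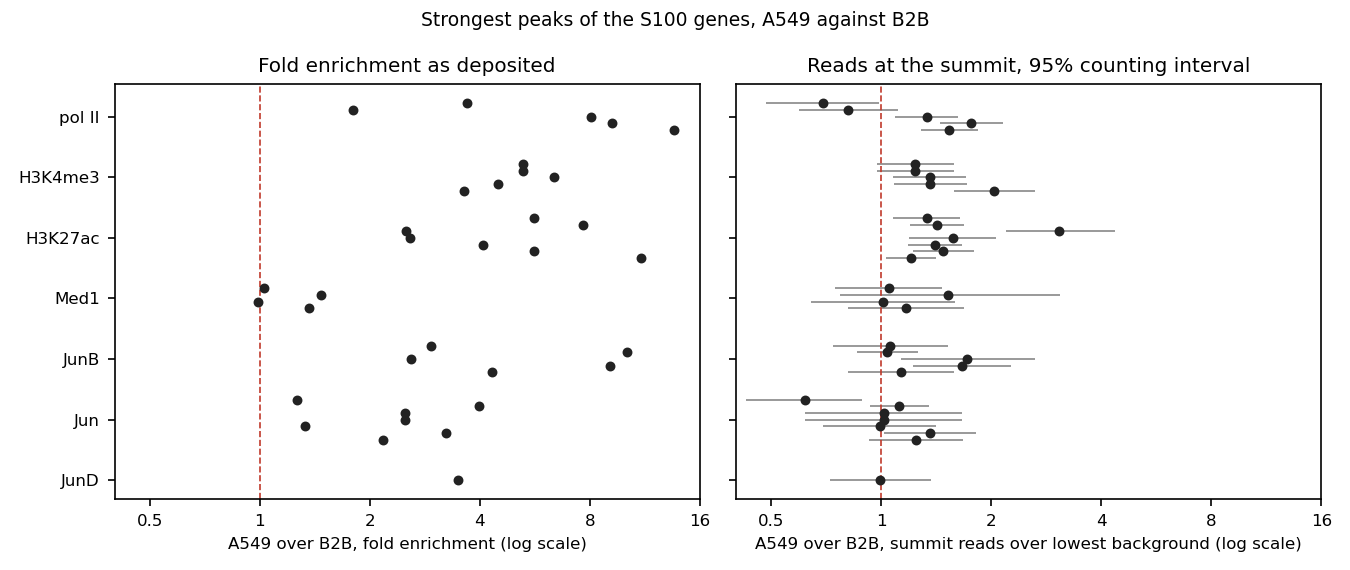
A549 over B2B for the overlapping strongest peaks of the S100 genes, by target, on a log scale. The left panel plots the deposited fold enrichment and the right panel the summit reads over the lowest background of each list, with grey bars for the 95% counting interval and a dashed line at 1. The points move from a median of 3.66 on the left to 1.24 on the right.

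Across the 1.64 Mb, A549 and B2B had 27 and 25 pol II peaks, 16 and 14 H3K4me3 peaks, 27 and 34 H3K27ac peaks and 18 and 21 Med1 peaks. The Jun family had more peaks in A549, with 26 against 11 of JunB, 42 against 36 of Jun and 10 against 3 of JunD, but the JunB lists differ in length, and with lists of equal length the JunB ratio was 1.09 in place of 2.36. Against the density on chromosomes 1 to 12 (up to the last annotated gene of each), JunB peaks in the cluster stood at 15.9 per Mb against 9.60 in A549 and at 6.71 per Mb against 3.04 in B2B. A raised density was not particular to JunB. In B2B, pol II stood at 15.2 per Mb against 8.16, H3K27ac at 20.7 against 11.9 and CTCF at 45.1 against 20.5. B2B JunD, at 1.83 against 2.99, and A549 H3K4me3, at 9.76 against 10.4, were less dense in the cluster. The cluster also held 37.2 protein-coding genes per Mb against 6.05. Whether peak density followed gene density was not tested. The members lie in 3 blocks of 71.0 kb (S100A10 and S100A11), 39.2 kb (S100A9 and S100A8) and 88.4 kb (S100A6 to S100A14), separated by over 100 kb. Each pol II, H3K4me3, H3K27ac and Med1 list had at most 6 peaks outside the blocks and 0 in the block of S100A9 and S100A8.

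Merging all Jun-family peaks gave 55 regions in the cluster. Of these 23 were called in both lines, against 26.9% of the 51491 regions of chromosomes 1 to 12, 21 in A549 only (32.8%) and 11 in B2B only (40.3%). The share called in both lines was 41.8% in the cluster. The first block held 13 regions, the block of S100A9 and S100A8 held 1, and the block of S100A6 to S100A14 held 11, so 30 lay among the other genes. All 3 proteins were called together at 8 regions in A549, each of them in the first or last block, and at 3 regions in B2B.

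The strongest regions called in both lines were those of S100A2, the intron of S100A10 and the outer start of S100A11 (summed fold 99.2). In A549 only, the strongest were chr1:151998650-151999348, called by all 3 proteins between S100A10 and S100A11 with a summed fold of 43.3, and chr1:152049457-152050028, 1550 bp from the outer start of S100A11 (35.4), followed by chr1:152928749-152929039 near SPRR5 (17.7). In B2B only, they were chr1:152436679-152436903 near CRNN (20.3), chr1:152905952-152906650 beside IVL (19.2) and chr1:152855560-152856056 beside LCE7A (17.1). These strongest B2B-only regions thus lay outside the blocks, the one near CRNN 22416 bp from its start. Those of A549 were mainly at S100A10 and S100A11. Over all regions, 12 of the 21 called in A549 only and 9 of the 11 called in B2B only lay outside the blocks.

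A TGACTCA site lay within 50 bp of a summit in 22 of the 55 regions (40%, Wilson interval 28.1% to 53.2%). The share over the 8377 Jun-family regions of chromosome 1 was 29.7%, and that in windows 2 kb away was 1.61%. By class, 12 of 23 regions called in both lines, 7 of 21 called in A549 only and 3 of 11 called in B2B only held the site. Any summit of a region could count. Regions called in both lines have a summit in each line, so the classes were not searched over equal lengths. The intervals of the classes overlap. The 3 strongest shared regions all held it.

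**Figure D5:**
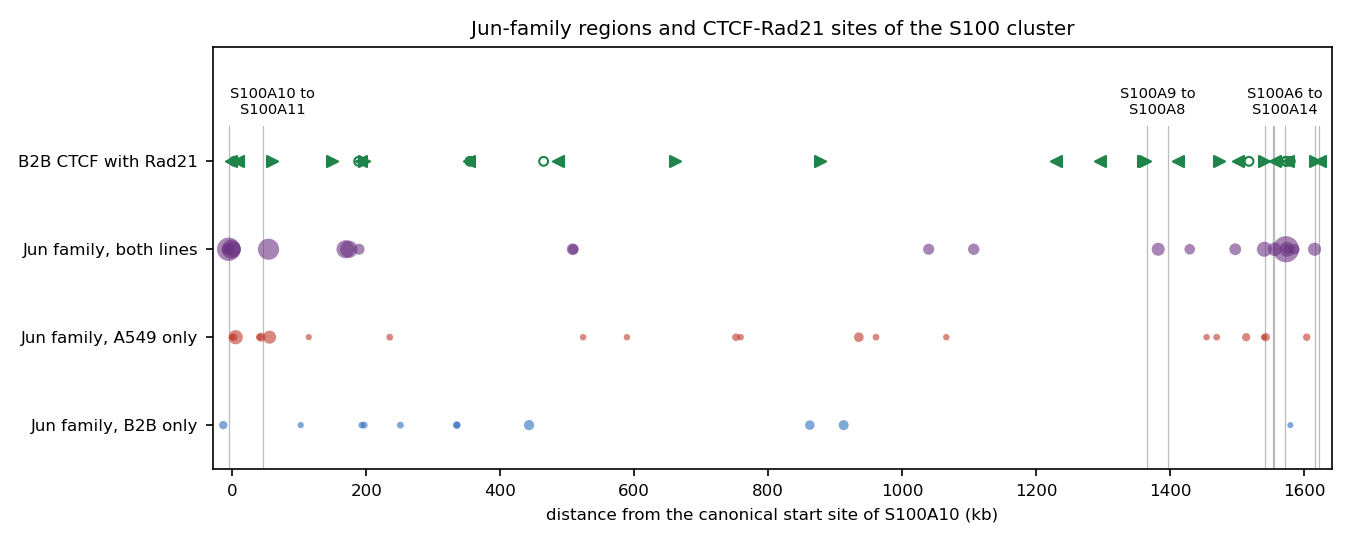
Jun-family regions of the S100 cluster by class, with dot area growing with the summed fold enrichment, and B2B CTCF sites with Rad21, by distance from the canonical start of S100A10 in kb. Triangles point in the direction of the CTCF core, open circles had none, and grey lines mark the 10 genes. The largest dots lie at S100A10, S100A11 and S100A2, and the CTCF sites also run between the blocks.

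CTCF binds a defined sequence whose direction matters for the loops that cohesin, the ring complex that contains Rad21, holds together. In B2B, 30 of the 74 CTCF peaks of the cluster overlapped a Rad21 peak by at least 1 bp (40.5%, against 35.8% on chromosomes 1 to 12), and 30 of the 39 Rad21 peaks overlapped CTCF (76.9%, against 59.1%). The gap from S100A11 to S100A9 held 15 of these sites, that from S100A8 to S100A6 held 5, and those from S100A10 to S100A11 and from S100A2 to S100A16 held 2 each. Between S100A9 and S100A8, S100A6 and S100A4, S100A3 and S100A2, and S100A16 and S100A14 there was none. 2 sites lay within S100A2, 1 each within S100A10, S100A4 and S100A16, and 1 past S100A14. Outside the blocks lay 18 sites, at 12.5 per Mb, and in the blocks 12, at 60.4 per Mb, so the blocks held the sites more densely. The gap from S100A2 to S100A16 was the only one between genes of the last block that held a site.

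The strongest Rad21 peak of an S100 gene lay 641 bp from the outermost start of S100A2, with 262 reads (rank 19 of 38888), over a CTCF peak of 237 reads (1.84% from the top). S100A6 had a pair of 257 Rad21 reads (rank 267 of 38888) and 231 CTCF reads 2476 and 2514 bp from its start, on the side of S100A8. The pair past S100A14 had 127 Rad21 and 219 CTCF reads. Between these limits lie 6 of the 10 genes. In contrast, the sites within S100A4 (24 Rad21 and 45 CTCF reads) and within S100A16 were weak.

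A match of at least 10 of 12 positions to the CTCF core was found at 22 of the 30 sites (73.3%, Wilson interval 55.6% to 85.8%), against 58.9% of the CTCF peaks of chromosome 1 and 6.84% of windows 2 kb away. The cores that lie at the edges of the last block are shown with the one at S100A2, each in its own direction with the core in capitals. S100A6 has its core on the plus strand (chr1:153533272-153533337), and the cores at S100A2 (chr1:153568679-153568744) and past S100A14 (chr1:153617749-153617814) are on the minus strand, so the outer pair points inward. For S100A10 to S100A11 the core at chr1:152001874-152001939, also on the minus strand, stood in the CTCF peak at 0.234% from the top.
S100A6 edge, plus strand: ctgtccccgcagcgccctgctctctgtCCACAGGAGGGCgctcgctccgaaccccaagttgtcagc
S100A2 outer start, minus strand: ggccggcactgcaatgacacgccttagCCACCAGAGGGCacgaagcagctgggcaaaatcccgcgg
S100A14 edge, minus strand: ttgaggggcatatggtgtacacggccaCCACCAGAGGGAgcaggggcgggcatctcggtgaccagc
S100A10 to S100A11, minus strand: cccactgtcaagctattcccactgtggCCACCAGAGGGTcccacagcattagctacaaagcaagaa

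Of the 9 Rad21 peaks of the cluster without CTCF, 5 covered a start of S100A10, S100A11, S100A6, S100A4 or S100A16. The S100A10 peak had 151 reads and the S100A11 peak 115. At the AP-1 site of S100A2, weaker B2B CTCF (85 reads) and Rad21 (104 reads) peaks lay under the Jun-family peaks, and no CTCF core was found there. A second CTCF and Rad21 site within S100A2, chr1:153565836-153566026, lay in the same Jun-family region.

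The RefSeq promoters (250 bases before to 50 after a start, GRCh38.p14) of the 10 genes, 14 in all, included 2 with a TGACTCA site on either strand, at S100A3 and S100A2, against 4.95% of 35116 promoters. The S100A2 promoter with a site was chr1:153565795-153566094. It does not hold the S100A2 site printed above, at chr1:153566694-153566700. CpG dinucleotides were at a median of 5, against 14 in all promoters. S100A10 (32), S100A6 (31) and S100A11 (22) were the CpG-rich members, and they were among the genes with H3K4me3 in both lines. S100A2, with 4 and 5 CpG in its 2 promoters, had weak or no H3K4me3. S100A16, with 8 and 3, was however called for H3K4me3 in both lines, so low CpG did not go with its absence throughout. S100A14, with 5, was reached only by the H3K4me3 peaks that lie nearest to S100A16. The 3 S100A8 promoters and the S100A9 promoter had at most 5.

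Other S100 genes gave a range of patterns. Of 7 other S100 genes on chromosome 1, S100A1 and S100A13, which overlap, were called for pol II, H3K4me3, H3K27ac and Med1 in both lines. S100A5, which lies beside S100A6, was called for H3K27ac in both lines and for H3K4me3 in A549. S100A7, S100A7A, S100A7L2 and S100A12 were called for none of these 4 marks. Away from chromosome 1, S100P had pol II, H3K4me3 and H3K27ac peaks in A549 and none in B2B.

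The genes between the blocks were mostly unmarked. Of 40 cornified envelope genes, 0 had a pol II peak in A549 and 1, IVL (involucrin), in B2B. Of the 9 partners and receptors of S100 proteins, 5 (ANXA2, ANXA1, ANXA11, MYH9 and ALCAM) had JunB and Jun peaks in both lines, where 4.71% of all genes had JunB and 20.1% had Jun in both, and TLR4 had neither pol II nor H3K27ac in either line. Among genes of the cluster, S100A7A and PGLYRP4 were the nearest of those with no call, like S100A8, and SMCP and LCE1F, the most like S100A9, differed from it in 1 of 16 lists. S100A2 differed from S100A6 and S100A11 in 2 of 16 lists, and S100A16 differed from both in 2.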

How the data were processed

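ChIP-seq libraries of A549 and B2B were aligned by the authors to hg38 with Bowtie2 (2.4.4), duplicates were removed, replicates were merged and normalised by CPM with SAMtools (1.13), and peaks were called with MACS2 (2.2.7.1), per the submitters' processing notes and the study's methods. The options, the control and the total depth were not given in the sources used here, and the smallest deposited -log10 q was 2.00. The deposited lists give a fold enrichment (a ratio over the local background), a -log10 p and a -log10 q for each peak. 4 lists (A549 pol II, H3K27ac and Med1, and B2B Med1) end before the end of the genome, so shares over all genes used chromosomes 1 to 12. Input samples were not used here, and CTCF and Rad21 were examined in B2B only.

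Start sites were those of GENCODE 44. Whole summit reads and the local background were solved from fold enrichment and -log10 p (SciPy 1.17.1, pandas 2.3.3, Python 3.11.15), and the solver was tested on simulated data. This step, the ratio built on it, the 500 bp limit on paired summits, the CTCF core search and the choice of the printed CTCF sequences were made after values had been seen. The genes and lists were chosen with earlier results of these data known. All 10 genes were named, with the 3 strongest Jun-family regions per class and up to 2 most alike genes per member. The CTCF site at the outer start of S100A2 falls outside the naming rule and was chosen after its values were seen. Samples were grouped by cell line and antibody in the labels. Alternatives covered the distance, the q threshold, list length, start sites, overlap rules and the limits of the cluster. Intervals are Wilson or exact counting intervals and cover counting error only.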

Additional observations from a re-analysis of the deposited data

How the results depend on the processing

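Of 176 alternative values, 167 stayed within 1.5 times the reported value or within the counting interval of a ratio. 3 peak ratios of A549 over B2B across the cluster crossed 1: pol II from 1.08 to 0.80 with lists of equal length, and in covered bases H3K27ac from 0.794 to 1.22 and Med1 from 0.857 to 1.11. Counting the canonical start alone lowered the B2B JunB count from 5 to 3 genes and the B2B Jun count from 7 to 4, since S100A11, S100A16 and, for Jun, S100A4 are reached through other starts. A reach of 5 kb raised the B2B JunD count from 1 to 2. A reach of 1 kb gave 1 gene with H3K27ac in B2B alone (S100A14, from 0), 1 with Med1 in B2B alone (from 2) and 1 with Jun in A549 alone (S100A6, from 0). In covered bases, the pol II ratio of A549 over B2B across the cluster was 1.92 in place of 1.08. With lists of equal length, a setting that shortens the longer A549 list, the JunB ratio was 1.09 in place of 2.36. The median ratio of strongest peaks, 3.66 in fold enrichment, was 1.24 in summit reads, a setting added after seeing the data. No paired analysis was possible because the replicates had been merged before peaks were called. The merging also leaves no replicate to leave out, and the depth of each library is unknown, so a missing peak is one not called at this depth.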
